A study of Mus musculus with 2 samples.

Results

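The genes described here encode the kidney's transporters for sugars, inorganic phosphate, sulfate, di- and tricarboxylates, ascorbate and related anions. They were chosen by name, as every gene with a single platform symbol that starts with Slc2a, Slc5a, Slc13a, Slc17a, Slc20a, Slc23a, Slc34a or Slc37a and a number. The rule found 51 of the 22180 genes on the array. Of these, 49 are protein coding, 1 (Slc13a2os) is an antisense RNA of a carboxylate transporter gene and 1 (Slc2a4rg-ps) is a transcribed pseudogene whose name only shares the prefix. Slc5a10, Slc13a2 and Slc5a3 share their probe set with a neighbouring gene in the platform annotation, so these 3 are not members and were not analysed here.

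Their expression was compared in kidney RNA of male mice with a systemic knockout of Iah1 (Iah1-KO) and male wild-type mice (Iah1-WT). Both groups ate chow until 6 weeks of age and then a high-fat diet for 12 weeks, and were killed after 4 hours without food, so the diet is common to both and no chow group is compared. RNA of 3 mice was pooled onto 1 Affymetrix whole-transcript array per genotype, which leaves no replicate, no test and no estimate of the spread between mice. The labels name neither the way Iah1 was inactivated nor the strain.

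All values are log2 RMA values of a gene's brightest probe set. RMA is the authors' background correction, quantile normalization and probe summary, so a value is a relative signal that also depends on the probes. Values are therefore compared between the pools for each gene and not between genes. Where a gene has a pair of values, wild type comes first and knockout second. A gene is called measurable here when its higher value reached log2 6, the expression floor, which 7671 genes did. Differences are Iah1-KO minus Iah1-WT on the log2 scale. As a description of how far single genes scatter on these arrays, each difference is set beside a local robust SD, which is the median absolute deviation, scaled to match an SD, of the 500 measurable genes nearest in mean value. In whole tissue, fewer cells of a type and less RNA per cell cannot be told apart.

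The labels and the tissue were checked first. Iah1 itself was at 9.09 in the wild-type and 3.60 in the knockout pool, where the value lay under the array's median of 4.03. Markers of the proximal tubule were bright in both pools, with the endocytic receptor Lrp2 at 11.85 and 11.80, and so were Umod of the loop of Henle (11.65 and 11.62) and Slc12a3 of the distal convoluted tubule (11.33 and 11.41). None of the 6 adrenal markers and none of the 6 matched urothelial markers reached the floor. Of the 6 liver markers 3 reached the floor, Ttr at 11.17 and 10.98, Apob at 10.54 and 10.61 and Alb at 8.28 and 8.68, and Fgb, Apoa1 and Serpina1a did not.

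The proximal tubule takes back nearly all filtered glucose and much of the filtered phosphate, sulfate and citrate. Sodium-coupled carriers in the brush border use the sodium gradient to draw the solute into the cell, and facilitative carriers or exchangers in the basolateral membrane let it out into the blood. Other carriers of these families serve single tasks, such as the export of urate, the uptake of ascorbate and multivitamins, or the movement of sugar phosphates into the endoplasmic reticulum.

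Expression of the measurable members was nearly equal in the 2 pools, and about as close as for other genes of their level. Of the 51 members, 23 were measurable, 21 of them on both arrays. Slc23a2 did so only in wild type and Slc2a4 only in the knockout. Among the 23, 0 differed by 1.5-fold or more, against 0.43% of all measurable genes, and 0 by 2-fold or more, against 0.0521%. With shares that small, 0 of 23 does not set the members apart from other genes. A single one, Slc23a2, differed by at least 1.2-fold, against 9.13% of measurable genes. The other 22 lay between -0.24 and 0.11. The median difference of the 23 was 0.03, against 0.01 over all measurable genes. The median size of a difference, signs left aside, was 0.05, against 0.09. Since brighter genes scatter less and 11 of the members had a mean of at least 10, the same figure was taken over genes that bright. It was 0.06 for the 11 members and 0.06 for all 397 such genes.

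**Figure D1:**
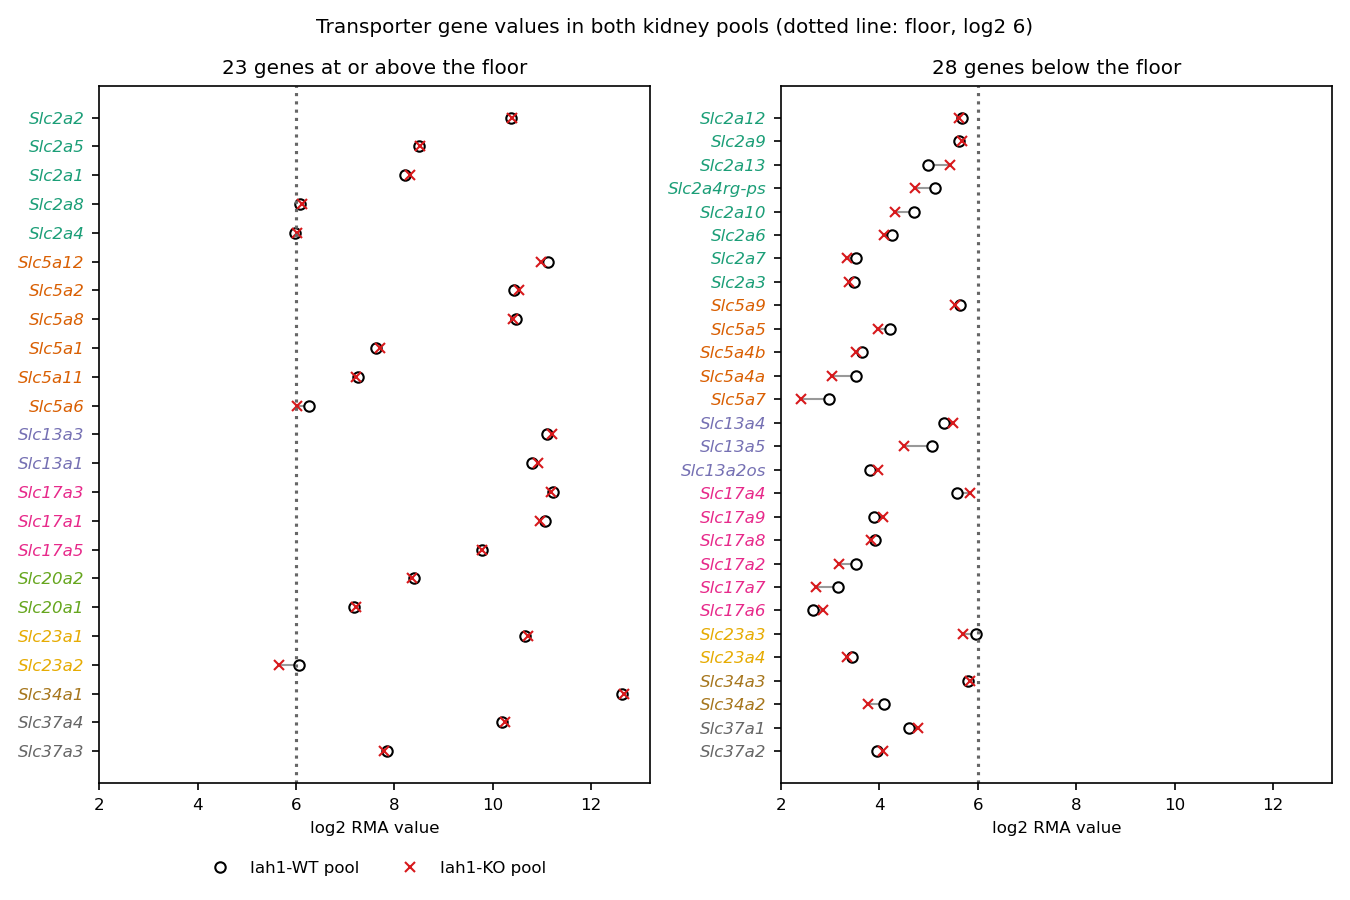
Log2 RMA value of each transporter gene in the Iah1-WT pool (open circles) and the Iah1-KO pool (red crosses), 1 array each, with gene names coloured by family. The symbols nearly coincide for most of the 23 genes at or above the floor (dotted line), and lie further apart for several of the 28 dim genes.

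Of the 23 measurable members, 13 lay above 0 and 10 below, near the 52.4% above 0 among all measurable genes. Within 1 local robust SD of 0 were 16 of the 23, against 66.6% of all measurable genes. Beyond 2 local robust SDs were 0 of the 23, against 6.57%. The members furthest from 0 on this scale were Slc23a2, Slc5a12 and Slc5a6, each on the lower side in the Iah1-KO pool.

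**Figure D2:**
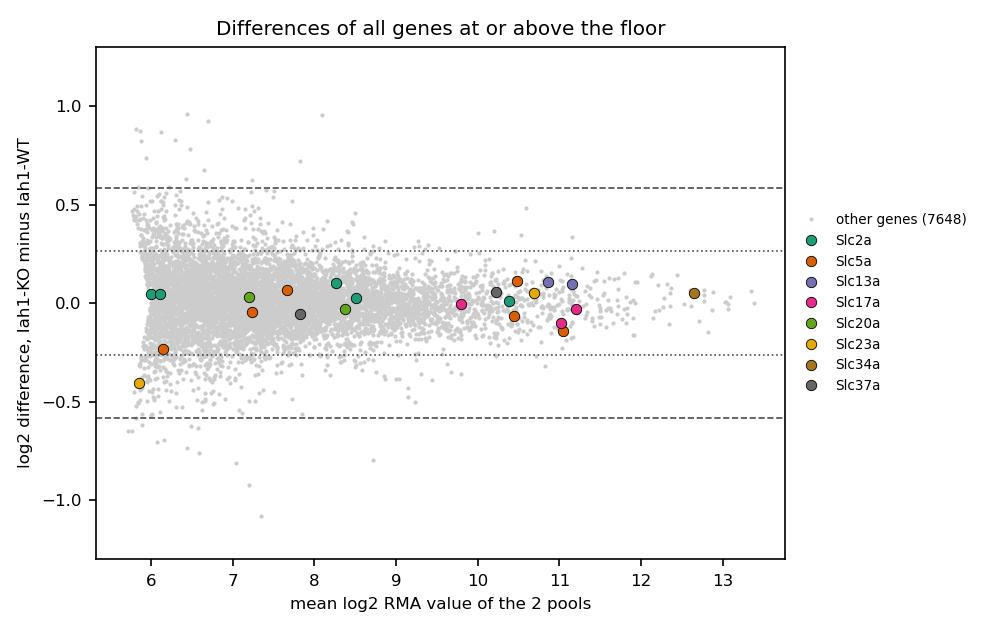
Difference between the pools (vertical axis, log2) against the mean log2 RMA value (horizontal axis) for all 7671 genes at or above the floor, with the 23 transporter genes coloured by family and 3 other genes outside the axis. Dotted lines mark 1.2-fold and dashed lines 1.5-fold; 1 transporter gene, Slc23a2, lies past a dotted line.

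Filtered glucose is taken up in the early proximal tubule by the sodium-glucose cotransporter of Slc5a2, the target of the gliflozin drugs. Slc5a2 was at 10.43 in the wild-type and 10.54 in the knockout pool. The difference of 0.11, a 7.92% higher signal, was the furthest above 0 of the measurable members and ranked 3187 of 7671 genes by size. Of the 500 genes nearest in mean value, 27.4% differed at least as much. Slc5a1, the high-affinity cotransporter that takes up remaining glucose further downstream, was at 7.63 and 7.70, a difference of 0.07 against a local robust SD of 0.13.

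The facilitative carriers that pass this glucose on to the blood were equally close. Slc2a2, the basolateral partner of the early segment, was at 10.38 in wild type and 10.39 in the knockout, a difference of 0.01. Slc2a1, the widely expressed glucose carrier, was at 8.22 and 8.32 in its brightest probe set, a difference of 0.10. Its other probe set was at 4.07 and 3.98, close to the array medians, and differed by -0.09, so the direction of Slc2a1 depends on the probe set. Slc2a5, the fructose carrier, was at 8.50 and 8.52.

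The remaining hexose carriers were dim. Slc2a8, an intracellular carrier, was at 6.09 and 6.13. Slc2a4, the insulin-responsive carrier of muscle and fat, was at 5.98 and 6.03, on either side of the floor. All 5 measurable Slc2a genes lay between 0.01 and 0.10. Below the floor, Slc2a12 was at 5.68 and 5.62, and Slc2a13, a proton-coupled inositol carrier, was at 4.996 and 5.42. The difference of Slc2a13 was 0.43, and 8.60% of the 500 genes nearest in mean value, dim ones included, differed at least as much. The pseudogene Slc2a4rg-ps was at 5.13 and 4.73.

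Genes that surround glucose reabsorption were read from a list of 17, of which 12 were measurable. In this list 9 lay above 0, 3 below and 0 were past 1.2-fold, and the median was 0.04. Hnf4a, a regulator of proximal tubule genes, was at 10.69 and 10.85, Hk1 of glycolysis at 7.19 and 7.35, and Txnip, a glucose-responsive inhibitor of thioredoxin, was at 10.68 and 10.52. The membrane protein Pdzk1ip1, a partner of the Slc5a2 protein, differed by 0.01.

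Other Slc5a genes carry monocarboxylates, inositol and vitamins. Slc5a12, the low-affinity lactate cotransporter of the early proximal tubule, was at 11.12 in wild type and 10.97 in the knockout. The difference of -0.14, a signal change of -9.46%, came to -1.46 local robust SDs, and 14.0% of the 500 genes nearest in mean value differed at least as much. Slc5a8, the high-affinity lactate cotransporter, was at 10.48 and 10.42, a difference of -0.06. Slc5a11, an inositol cotransporter, was at 7.26 and 7.22.

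Slc5a6, the multivitamin cotransporter for biotin, pantothenate and lipoate, was at 6.26 in wild type and 6.03 in the knockout, just above the floor in both. Its difference of -0.24 ranked 903 by size, beside a local robust SD of 0.18. In the list of vitamin C and multivitamin genes, 5 of 11 were measurable, 1 lay above 0 and 4 below, and the median was -0.17. Among all measurable genes 52.4% lay above 0. Pank1 and Pank3, which start coenzyme A synthesis from pantothenate, were at 10.31 and 10.13, and at 8.87 and 8.67. Slc19a3, a thiamine carrier, was at 7.63 and 7.46. Of the 5 measurable genes, 0 were past 1.2-fold. The dim Gulo, Rgn and Hlcs of this list were higher in the knockout, by 0.15, 0.01 and 0.06.

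Of the 11 Slc5a genes, dim ones included, 9 lay below 0 and 2 above, with a median of -0.13. Over all 22180 genes, 49.3% lay above 0 and the median was -0.0024. Counted the same way, 7 of 13 Slc2a genes and 3 of 9 Slc17a genes lay above 0. The 6 measurable Slc5a genes had 4 below 0 and 2 above, with a median of -0.05. The 5 below the floor, each lower in the knockout, were Slc5a9 (5.65 and 5.54), Slc5a4a, Slc5a4b, the iodide carrier Slc5a5 and the choline carrier Slc5a7. The last had the largest difference of all members, -0.58, at 2.97 and 2.40. Both values are below the array medians of 4.05 and 4.03, so neither is shown to be above background.

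Sulfate and dicarboxylates enter through Slc13a carriers. Slc13a1, the sodium-sulfate cotransporter of the brush border, was at 10.81 in wild type and 10.92 in the knockout, a difference of 0.11. Slc13a3, the basolateral dicarboxylate cotransporter that supplies exchange substrate to the organic anion carriers, was at 11.11 and 11.21, a difference of 0.09. The local robust SD was 0.10 for both genes. Of genes near them in mean value, 27.8% differed at least as much as Slc13a1 and 35.2% as much as Slc13a3.

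The dim Slc13a genes differed more. Slc13a4, a second sulfate cotransporter, was at 5.31 and 5.50. Slc13a5, the sodium-citrate cotransporter known from liver, was at 5.07 in wild type and 4.50 in the knockout. Its difference of -0.57, equal to 1.49-fold, stopped just short of the 1.5-fold threshold, and 5.20% of the 500 genes nearest in mean value differed at least as much. The antisense RNA Slc13a2os was below the median of each array.

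The list of sulfate and organic anion genes had 12 of 14 members measurable, with 9 above 0, 3 below and a median of 0.06. Slc26a1, the basolateral sulfate exchanger that completes the path begun by the Slc13a1 protein, was at 9.02 and 9.03. Slc26a2, a widely expressed sulfate carrier, was at 6.31 and 6.59 and was the only one past 1.2-fold, where 5.36% of measurable genes were higher. The sulfite oxidase gene Suox was at 8.14 and 8.38. Slc22a8, an organic anion exchanger, was at 11.03 and 11.26, while its partner Slc22a6 differed by 0.09. In the list of dicarboxylate and citrate metabolism, 16 of 17 genes were measurable, 7 above 0 and 9 below, with a median of -0.01. Slc25a10, the mitochondrial dicarboxylate carrier, lay furthest from 0 at 8.87 and 8.65, followed by Suclg1 at 8.69 and 8.56, a subunit of succinate-CoA ligase.

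The Slc17a family includes brush border carriers of urate and other organic anions, a lysosomal carrier and carriers of synaptic vesicles. Slc17a1, Slc17a2 and Slc17a3 lie side by side on chromosome 13, which also holds Slc17a4, below the floor and not shown. The 3 neighbours are shown because 2 of them were measurable in both pools and the other was not. The 250 bases before a RefSeq start of each (GRCm38.p6) follow, with the best match to the palindromic motif GTTAATNATTAAC of the factor HNF1 in capitals where at most 2 of its bases differed.
Slc17a2, chr13:23806743-23806992, plus strand: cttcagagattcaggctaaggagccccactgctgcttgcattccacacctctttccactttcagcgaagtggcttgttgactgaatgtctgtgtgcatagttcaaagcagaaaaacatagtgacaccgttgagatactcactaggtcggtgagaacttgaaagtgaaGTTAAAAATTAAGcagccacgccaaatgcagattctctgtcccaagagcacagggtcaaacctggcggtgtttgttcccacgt
Slc17a3, chr13:23839184-23839433, plus strand: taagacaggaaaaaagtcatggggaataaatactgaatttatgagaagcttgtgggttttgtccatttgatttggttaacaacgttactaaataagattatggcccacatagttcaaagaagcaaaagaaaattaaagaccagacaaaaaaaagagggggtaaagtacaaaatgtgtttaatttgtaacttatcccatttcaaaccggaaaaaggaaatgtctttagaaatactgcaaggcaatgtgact
Slc17a1, chr13:23870023-23870272, plus strand: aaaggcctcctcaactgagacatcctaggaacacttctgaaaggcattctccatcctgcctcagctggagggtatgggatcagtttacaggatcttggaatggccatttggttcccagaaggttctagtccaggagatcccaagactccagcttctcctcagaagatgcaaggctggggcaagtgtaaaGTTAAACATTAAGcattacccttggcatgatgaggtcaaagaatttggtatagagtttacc
The window of Slc17a2 holds GTTAAAAATTAAG, starting 83 bases before the start site, and that of Slc17a1 holds GTTAAACATTAAG at 61 bases. The window of Slc17a3 and another start of Slc17a1 hold no such match. Windows were at hand for 40 of the members. A match was present in 3 of their 50 windows and in 407 of all 32851 windows, or 1.24%. The third was Slc17a6. By level, 1 of 24 windows of measurable members and 2 of 26 windows of members below the floor held a match. A match is a description of letters and not a measured site.

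Slc17a1 was at 11.07 in wild type and 10.97 in the knockout, a difference of -0.10 that equals 1.02 local robust SDs in size. Slc17a3 was at 11.22 and 11.19, a difference of -0.03. Slc17a2, singled out once its values were known, was at 3.52 and 3.19, below the median of each array. Slc17a4, an intestinal relative, was at 5.58 and 5.84, and 20.4% of the 500 genes nearest in mean value differed at least as much. Slc17a5, the lysosomal sialic acid carrier, was at 9.79 in both pools and had the smallest difference of the measurable members, -0.01. The vesicular carriers Slc17a6, Slc17a7, Slc17a8 and Slc17a9 were below the floor, and of their values 1 (Slc17a9 in the Iah1-KO pool, 4.08) exceeded the median of its array.

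Other urate genes were read beside them. Slc2a9, the urate carrier named as a hexose carrier, was at 5.61 and 5.67. Slc22a12, the brush border exchanger that takes urate back, was at 10.73 and 10.82, and Abcg2, which pumps urate out, at 10.06 and 9.89. Of the 9 listed genes 5 were measurable, 4 above 0 and 1 below, and 0 were past 1.2-fold. Furthest from 0 of these 5 was Slc22a2, listed here but mainly an organic cation carrier, at 10.59 and 10.81. Xdh was at 6.57 and 6.78. Allc, which would act after urate oxidation, differed by -0.77 but was below the median of each array, at 3.49 and 2.72.

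Phosphate is taken back mainly by Slc34a1, whose protein is withdrawn from the brush border by parathyroid hormone and FGF23. Slc34a1 was at 12.62 in wild type and 12.67 in the knockout. The difference of 0.05 came to 0.52 local robust SDs, and 59.2% of genes of like value differed at least as much. Slc34a3, the second renal cotransporter of this type, was at 5.80 and 5.83. Slc34a2, the form of intestine and lung, was near or below the array medians. Slc20a1 and Slc20a2, the widely expressed type III cotransporters, were at 7.18 and 7.21, and at 8.40 and 8.36.

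The list of phosphate handling had 11 of 18 genes measurable, with 6 above 0, 5 below, 0 past 1.2-fold and a median of 0.00. Kl, the coreceptor of FGF23, was at 11.01 and 11.03, and the parathyroid hormone receptor Pth1r was at 10.06 in both pools. The receptor Fgfr1 was at 6.51 and 6.32, and Slc9a3r1, a scaffold that holds the Slc34a1 protein in the brush border, at 9.38 and 9.23. Cyp27b1, the enzyme that activates vitamin D, was at 5.91 in wild type and 4.87 in the knockout, a difference of -1.05. Both values were below the floor, and 0.40% of the 500 genes nearest in mean value differed at least as much. Cyp24a1, the enzyme that inactivates vitamin D, was at 9.61 and 9.70.

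Ascorbate carriers held the only measurable member past 1.2-fold. Slc23a1, the brush border ascorbate cotransporter, was at 10.66 in wild type and 10.72 in the knockout, a difference of 0.05. Slc23a2, the ascorbate cotransporter of most other cells, was at 6.06 and 5.66. The difference of -0.41, equal to 1.33-fold, was 72nd from the lowest of 7671 genes, and 3.77% of measurable genes were lower by at least 1.2-fold. The gene passed the floor through its Iah1-WT value alone. The local robust SD there was 0.27, and 12.0% of the 500 measurable genes nearest in mean value differed at least as much. Such neighbours also passed through their higher value, which widens their spread. Among the 500 genes nearest without a floor, the robust SD was 0.21 and 7.20% differed at least as much. Its other probe set was at 3.04 and 2.86, below the array medians. Slc23a3, an orphan relative, was at 5.96 and 5.70, and Slc23a4 was below the median of each array.

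The Slc37a family is named for the exchange of sugar phosphates. Slc37a4, the glucose 6-phosphate carrier needed for glucose release, was at 10.20 in wild type and 10.26 in the knockout. Its enzyme partner G6pc was at 11.18 and 11.22. Slc37a3 was at 7.85 and 7.79. Slc37a1 and Slc37a2 were below the floor.

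**Figure D3:**
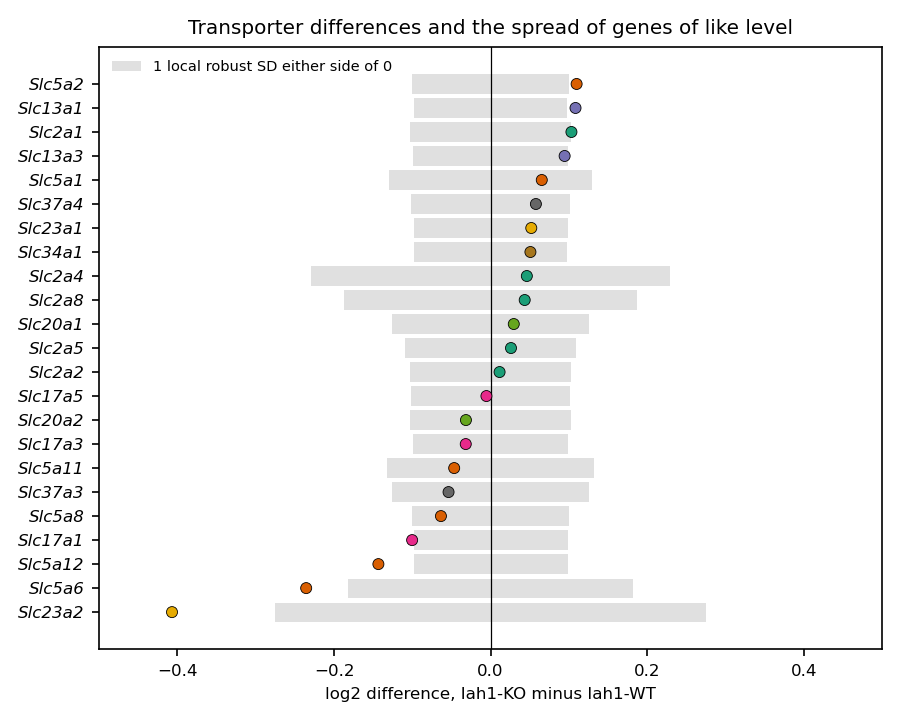
Difference between the pools (points, log2, coloured by family) for the 23 measurable transporter genes, ordered by value, over grey bars that reach 1 local robust SD either side of 0. Points lie inside or near their bars, with Slc5a2 at 0.11 highest and Slc23a2 at -0.41 lowest.

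The 28 members below the floor scattered more widely, between -0.58 and 0.43, with 18 below 0 and 10 above. Without a floor, 10 of the 51 members differed by at least 1.2-fold, against 21.9% of all 22180 genes, and 0 by 1.5-fold, against 2.42%. Of the 10, 1 (Slc2a13) was higher and 9 were lower in the knockout, against 10.3% and 11.6% of all genes. Of the dim members, 10 reached log2 5 on at least 1 array and are given above. The other 18 had values between 2.40 and 4.79, and 11 of them were below the median of both arrays.

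Other carriers, in sets that overlap, are given for comparison, with no test. The other 178 measurable Slc genes had a median difference of 0.02 and a median size, signs left aside, of 0.08, and 7.87% were past 1.2-fold. The 22 measurable organic ion and drug carriers had a median of 0.06 with 17 above 0, a median size of 0.08 and 9.09% past 1.2-fold. The 31 amino acid and peptide carriers had a median of -0.01 with 15 above 0, a median size of 0.07 and 9.68% past 1.2-fold. For the 23 transporters described here the median size was 0.05 and the share 4.35%, which is 1 gene, Slc23a2. The sets were not matched for level, and 11 of the 23 had a mean of at least 10. For those 11 the median size was 0.06, as for all 397 genes that bright. None of these carrier sets held a gene past 1.5-fold.

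Because most bright members are proximal tubule genes, markers of that cell type are given beside them. The early proximal tubule list had 13 of 14 genes measurable, 7 above 0 and 6 below, with a median of 0.02 and a summed linear signal of 33821 in wild type and 33914 in the knockout; Slc22a8 and Gatm (10.46 and 10.26) lay furthest from 0. The late list had 11 of 12 genes measurable, 2 above 0 and 9 below, with a median of -0.08 and a summed signal of 16938 and 16033. Rnf24 was furthest, at 7.73 and 7.28, followed by Cyp7b1 at 9.40 and 9.14 and Slc22a19 at 7.99 and 7.89. Past 1.5-fold were 0 genes of the early and 0 of the late list. The summed signals are led by the brightest genes, such as Slc27a2 at 12.76 and 12.67 in the late list. They are not a measure of cell number. The part of these marker values in the transporter values was not tested. In the other marker lists, 2 measurable genes were past 1.5-fold, against 0.43% of all measurable genes. The 2 were Atp6v1g3, a proton pump subunit of intercalated cells, at 7.46 and 6.64, and Lyz2, the lysozyme of macrophages, at 6.11 and 6.74. Below the floor, Adgre1 of the macrophage list and Lep and Cidec of the adipocyte list were also past 1.5-fold, each lower in the knockout. Without a floor, 2.42% of all 22180 genes were past it in either direction. The 9 measurable intercalated cell genes had 4 above 0 and 5 below, with a median of -0.03. Of the 8 macrophage genes 4 were measurable, 3 above 0 and 1 below, with a median of 0.26. Among them Cx3cr1 (5.75 and 6.16) passed the floor through its Iah1-KO value alone. Of the dim macrophage genes, Adgre1 (5.10 and 4.37) and Cd68 (5.97 and 5.74) were lower in the knockout. C1qa (5.55 and 5.59) and C1qc (5.69 and 5.99) were higher. The 8 measurable principal cell genes had 4 above 0 and 4 below, with a median of 0.06. Furthest from 0 were the water channels Aqp4 at 6.94 and 7.50 and Aqp2 at 6.20 and 6.68. The dim Gata3 of this list was lower in the knockout, at 5.91 and 5.64. In the distal convoluted tubule list 6 genes were measurable, 4 above 0 and 2 below, with a median of 0.07. Cnnm2 lay furthest from 0 among them, at 6.83 and 7.31. The dim Pvalb of this list was lower in the knockout, at 5.47 and 5.14. Of 7 measurable loop of Henle genes, 1 lay above 0 and 6 below, with a median of -0.09. Cldn10 was furthest, at 8.48 and 8.24. Of 8 endothelial genes, 7 lay above 0 and 1 below, with a median of 0.10. Cdh5 was furthest, at 7.94 and 8.18. Podocyte (2), adipocyte (2) and liver (3) lists had medians of 0.06, -0.02 and 0.07, with Podxl at 7.86 and 7.96 and Fabp4 at 8.40 and 8.34, and 1 red blood cell gene was measurable (Slc4a1, also of intercalated cells, at 6.58 and 6.76).

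The osmolyte and inositol list had 5 of 9 genes measurable, with a median of 0.02 and a range from -0.04 (Slc6a6, 10.26 and 10.22) to 0.08 (Impa1, 8.11 and 8.19).

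**Figure D4:**
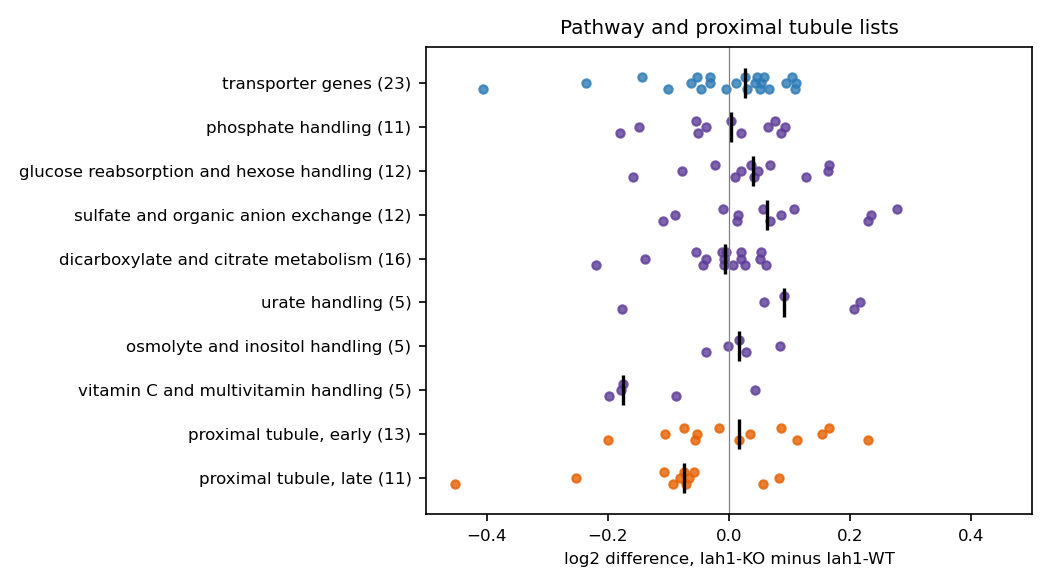
Difference between the pools (log2) of each measurable gene of the transporter set (blue), of 7 pathway lists (purple) and of 2 proximal tubule marker lists (orange), with the number of genes in parentheses and the median as a black line. Medians lie between -0.17 (vitamin C and multivitamin genes) and 0.09 (urate list).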

How the data were processed

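Kidney RNA pools were measured on 2 Affymetrix arrays, 1 per genotype. The authors deposited log2 values, 1 per probe set and array. The submitters' processing notes name RMA and Affymetrix Expression Console 1.3.0. Quantile normalization in RMA hides a shift common to most genes and summarisation compresses dim differences. The number of arrays limits the precision, and no p-value or SE is given. Of 41345 probe sets, 23521 had 1 platform symbol, 1814 several and 16010 none; those with 1 were used. All 51 members matched the RefSeq gene table of GRCm38.p6 by Entrez number with an unchanged symbol. No source used here names the array's build, so coordinates are RefSeq's and given for promoters only.

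Computed here with Python 3.11.15, numpy 2.4.6, pandas 2.3.3 and statsmodels 0.14.6 were differences, ranks, counts past 1.2-, 1.5- and 2-fold, and local robust SDs, a procedure tested on simulated data. The members and lists were chosen with earlier results of these data known. Of 95 pathway entries 83 matched a gene, and of 116 marker entries 104; the others were not analysed here. Both values were to be given for the 30 largest differences among measurable members, for dim members that reach log2 5, and for 1 to 3 measurable genes per list with the largest difference; some further genes, such as Cyp27b1, Allc, Slc5a7, Slc17a2 and Slc17a9, are named for their role or after their values were seen. Alternatives were floors of log2 5, log2 7, none or on the mean, centring, a loess correction (span 0.3), the mean over probe sets, and other fold thresholds.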

Additional observations from a re-analysis of the deposited data

How the results depend on the processing

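The count of transporter genes past 1.5-fold was 0 under each alternative floor, centring, the loess correction and the mean over probe sets, and 0 at 2-fold; it was 1 at a threshold of 1.2-fold (Slc23a2). With no floor all 51 genes entered, and their median was -0.032 in place of 0.03; under the other alternatives it lay between 0.01 and 0.03. The number of genes was 33 with a floor of log2 5, 19 with log2 7, and 22 with the floor on the mean or with the mean over probe sets, where Slc23a2 dropped out. Floors and thresholds cannot alter a gene's own difference. Of the 47 single-gene values that centring, loess or averaging of probe sets could alter, 0 moved by more than the local robust SD. For centring this was fixed in advance, since it lowers every difference by the same 0.0085. The loess correction follows a smooth trend over level and was a weak check too. Its largest shift took Slc23a2 from -0.41 to -0.46, beside a local robust SD of 0.27. Averaging its probe sets took Slc2a1 from 0.103 to 0.007, a shift just short of its local robust SD of 0.103. Of the 47 values, 1 took another sign (Slc17a5, 0.0008 after loess). No paired analysis was possible because each genotype has 1 array. Signal near background limits the dim genes: 11 of the 18 members under log2 5 were below both array medians, and detection calls were not used here.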
